A study of Mus musculus with 8 samples.

Results

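The Cyp4a genes of the mouse encode cytochrome P450 enzymes that hydroxylate the terminal carbon of fatty acids. They were chosen by gene symbol, as Cyp4a10, Cyp4a14, Cyp4a12a, Cyp4a12b, Cyp4a31 and Cyp4a32, which are 6 of the 25010 genes with normalized counts in the RNA-Seq data. All 6 had a mean of at least 10 normalized counts over the livers and entered the test across genes. The mice, 2 WT and 2 LXRDKO, were C57BL/6 animals 8 wk of age that had gone without food for 4 to 6 h, and RNA came from the left liver lobe. In LXRDKO animals the genes of both receptors, Nr1h3 (LXRα) and Nr1h2 (LXRβ), are deleted in the whole body, so LXR was missing from every cell type of the organ. Each mouse gave 1 library, so P values rest on the spread between mice. With 2 livers per genotype, limma moderates the spread of each gene with that of the other genes tested. In RNA from whole tissue, fewer cells that express a gene and less RNA per cell cannot be told apart.

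CYP4A enzymes sit in the endoplasmic reticulum of hepatocytes, and of kidney tubule cells, and take electrons from NADPH-cytochrome P450 reductase. The ω-hydroxy fatty acids they make are oxidized to dicarboxylic acids, which are then shortened in peroxisomes. Cyp4a10 and Cyp4a14 are textbook targets of PPARα, the fatty acid-sensing nuclear receptor that is active in fasted liver, whereas Cyp4a12a, which makes 20-HETE from arachidonic acid, is known for its high expression in male mice. LXRs are oxysterol receptors that bind DNA with RXR, the partner that PPARα also uses, which is the background for asking how these genes stood in livers without LXR.

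All 6 genes lie in 1 cluster of 323 kb on chromosome 4. On GRCm38, the assembly that mm10 stands for, and in GENCODE M21, each is a protein-coding gene, and its coding transcript has 12 exons. Cyp4a12a (ENSMUSG00000066071) spans chr4:115299046-115332815 and Cyp4a12b (ENSMUSG00000078597) spans chr4:115411624-115439034. Cyp4a14 (ENSMUSG00000028715), at chr4:115486200-115496142, is the member on the minus strand, and the other 5 are on the plus strand. Cyp4a10 (ENSMUSG00000066072) follows at chr4:115518264-115533649, Cyp4a31 (ENSMUSG00000028712) at chr4:115563649-115579015 and Cyp4a32 (ENSMUSG00000063929) at chr4:115600969-115621602.

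The members resemble each other closely, which bears on how 50-bp reads can be assigned to them. The codons of the haem-binding signature, in which a cysteine holds the haem iron of every P450, show the kinship. They are given 5′ to 3′ on the coding strand, and capitals mark the bases that differ from Cyp4a10.
Cyp4a10, Cyp4a31 and Cyp4a32: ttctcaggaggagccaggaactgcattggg
Cyp4a14: ttctcaggaggaTcAaggaactgcattggg
Cyp4a12a and Cyp4a12b: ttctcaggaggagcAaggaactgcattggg
The 30 bases are split between 2 exons in each gene, and start at base 1345 of the coding sequence in Cyp4a10, at base 1339 in Cyp4a14 and at base 1342 in Cyp4a12a. Over the whole coding sequence, Cyp4a12a and Cyp4a12b were 98.5% identical and differed at 23 bases. Cyp4a10 was 97.2% identical to Cyp4a32 and 96.6% identical to Cyp4a31, and Cyp4a31 and Cyp4a32 were 96.0% identical. All other pairs were between 75.7% and 80.3% identical, so the family held a pair, a trio and Cyp4a14 on its own.

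Runs of 50 bases show where a read can tell the close relatives apart. The windows below are the most different 50 coding bases within 1 exon in the pair and in the trio, all on the plus strand of GRCm38, with the variable positions in capitals.
Cyp4a12a, chr4:115326632-115326681: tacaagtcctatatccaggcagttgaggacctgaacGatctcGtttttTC
Cyp4a12b, chr4:115432885-115432934: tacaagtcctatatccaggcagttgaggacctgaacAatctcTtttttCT
Cyp4a10, chr4:115519630-115519679: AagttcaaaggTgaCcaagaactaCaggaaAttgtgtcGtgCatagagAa
Cyp4a31, chr4:115565010-115565059: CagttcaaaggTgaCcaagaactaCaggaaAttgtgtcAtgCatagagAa
Cyp4a32, chr4:115602260-115602309: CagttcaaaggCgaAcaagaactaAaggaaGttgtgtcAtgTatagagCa
Even there the pair differed at 4 of 50 bases. In the trio 8 positions varied, and Cyp4a32 differed from Cyp4a10 at 8 bases but Cyp4a31 at 2. Of all 50-base runs in their transcripts, 48.9% in Cyp4a12a and 49.4% in Cyp4a12b also occurred in another gene, as did 29.8% in Cyp4a10, 20.6% in Cyp4a31 and 43.8% in Cyp4a32. Cyp4a14 shared 0.235% of its runs, none of them with another member. The counts of Cyp4a14 are therefore nearly free of this limit, whereas the split of reads within the pair and within the trio is uncertain, and their sums are given besides. How reads that match several genes were counted is not given in the sources used here. If such reads were left out, the sums lack them too, and levels are understated more for genes that share more of their sequence.

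Both deleted genes were lower in the mice labelled LXRDKO. Nr1h3 had 5785 and 5322 normalized counts in WT livers against 1712 and 1826 in the LXRDKO livers, and Nr1h2 had 2987 and 3110 against 925 and 1003 (adjusted P = 0.0147 for each, limma). Counts are per gene, so reads from any part that the deletion leaves are included. The WT livers differed from each other on several gene lists, and 2 livers alone cannot show which of them is unusual. WT replicate 2 was lower than WT replicate 1 at all 16 of 16 tested male-biased hepatic genes, with a median log2 difference of −1.15, and at all 14 of 14 pericentral genes, with a median of −0.66. It was higher at 11 of 12 tested female-biased genes (median 1.21) and at 24 of 26 tested PPARα target genes (median 0.39). Of all 15578 genes tested, it was higher at 7712 and lower at 7865. Summed over the male-biased genes, normalized counts were 368933 and 199400 in WT against 314260 and 344754 in LXRDKO. Pericentral genes summed to 842916 and 525529 against 852988 and 805711. Female-biased genes summed to 2581 and 8080 against 4197 and 4065, and PPARα targets to 690628 and 788360 against 520340 and 530523. The labels do not give the sex of the mice. RNA of the Y-linked gene Ddx3y was present in all 4 livers, at 4242 to 4916 normalized counts, as in male mice. Xist lay between 5.70 and 10.4. The log2 fold changes of the 6 Cyp4a genes are given with and without WT replicate 2, as are those of some lists and list genes.

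Cyp4a14 was the most variable member. It had 10563 and 74832 normalized counts in WT livers against 35178 and 20073 in the LXRDKO livers. Both LXRDKO livers lay inside the range set by the WT livers, whose values were 7.08-fold apart. Only 47 of the 15578 genes tested (0.302%) differed more between the WT livers. The LXRDKO livers were 1.75-fold apart. The log2 fold change between genotypes, LXRDKO minus WT, was −0.08 (SE 0.88, 95% interval −2.26 to 2.10, adjusted P = 0.982, limma with Benjamini-Hochberg adjustment over all genes tested). Here and below, log2 fold changes are of normalized counts plus 1 unless another test is named. On recovered read counts, DESeq2 and edgeR gave −0.63 and −0.62 for Cyp4a14, and neither called it. The direction turned on which WT liver was used. Without WT replicate 2 the log2 fold change was 1.33, without WT replicate 1 it was −1.49, and without LXRDKO replicate 2 it was 0.32. The genotype difference of Cyp4a14 was thus smaller than the spread between the WT livers.

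Cyp4a10 was steadier. Its normalized counts were 13308 and 23422 in WT against 19768 and 23600 in LXRDKO. The groups overlapped, with WT replicate 1 the low liver and the other 3 close together. Its log2 fold change was 0.29 (SE 0.27, 95% interval −0.38 to 0.96, adjusted P = 0.716, limma). Leaving out WT replicate 1 turned it to −0.12, and without WT replicate 2 it was 0.70. The ratio of Cyp4a14 to Cyp4a10, genes that share a regulator, was 0.794 and 3.19 in the WT livers against 1.78 and 0.851 in the LXRDKO livers. The LXRDKO values again lay between the WT values.

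Cyp4a12a and Cyp4a12b were the members on which the genotypes did not overlap. Cyp4a12a, the arachidonic acid ω-hydroxylase, had 12211 and 9294 normalized counts in WT against 5662 and 7098 in LXRDKO. Cyp4a12b, its neighbour and close copy, had 5130 and 4127 in WT and 1915 and 2588 in LXRDKO. At each gene the higher LXRDKO liver was under the lower WT liver. That order held for 2 of the 6 members, against 23.0% of all genes tested, and none of the 6 had both LXRDKO livers above both WT livers, against 21.7% of all genes. The 2 are near-identical and may share reads, so they do not count as 2 independent cases.

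The log2 fold change of Cyp4a12a was −0.75 (SE 0.17, 95% interval −1.18 to −0.32, adjusted P = 0.18, limma). That of Cyp4a12b was −1.05 (SE 0.18, 95% interval −1.49 to −0.60, adjusted P = 0.119, limma). Neither passed the threshold of 0.05, although both had an unadjusted P below 0.05 in limma. DESeq2, which models the recovered read counts and is the test the authors used, called both lower, Cyp4a12a with an adjusted P of 0.00481 and Cyp4a12b with an adjusted P of 2.89e-05, at nearly the same log2 fold changes of −0.75 and −1.04. The quasi-likelihood test of edgeR gave adjusted P values of 0.194 and 0.126. The call therefore depended on the test, while the size of the difference did not.

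The direction of both genes was kept when any liver was left out. Cyp4a12a then ranged from −0.95 to −0.55 and Cyp4a12b from −1.26 to −0.83 on the log2 scale. Without WT replicate 2, in which male-biased genes were lower than in WT replicate 1, the values were −0.95 and −1.20. Within the WT group the livers differed 1.31-fold at Cyp4a12a and 1.24-fold at Cyp4a12b, which was less than their difference between genotypes.

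Summed over the pair, so that a read assigned to either gene counts the same, the normalized counts were 17342 and 13421 in WT and 7577 and 9685 in LXRDKO. The log2 fold change of the sum was −0.83 (SE 0.17, adjusted P = 0.153, limma). Cyp4a12b stood at 0.42 and 0.444 of the level of Cyp4a12a in the WT livers and at 0.338 and 0.365 in the LXRDKO livers. The ratio did not overlap between genotypes. An exact permutation test of 2 livers against 2 cannot give a P value under 0.333, which is the value obtained for this ratio.

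**Figure D1:**
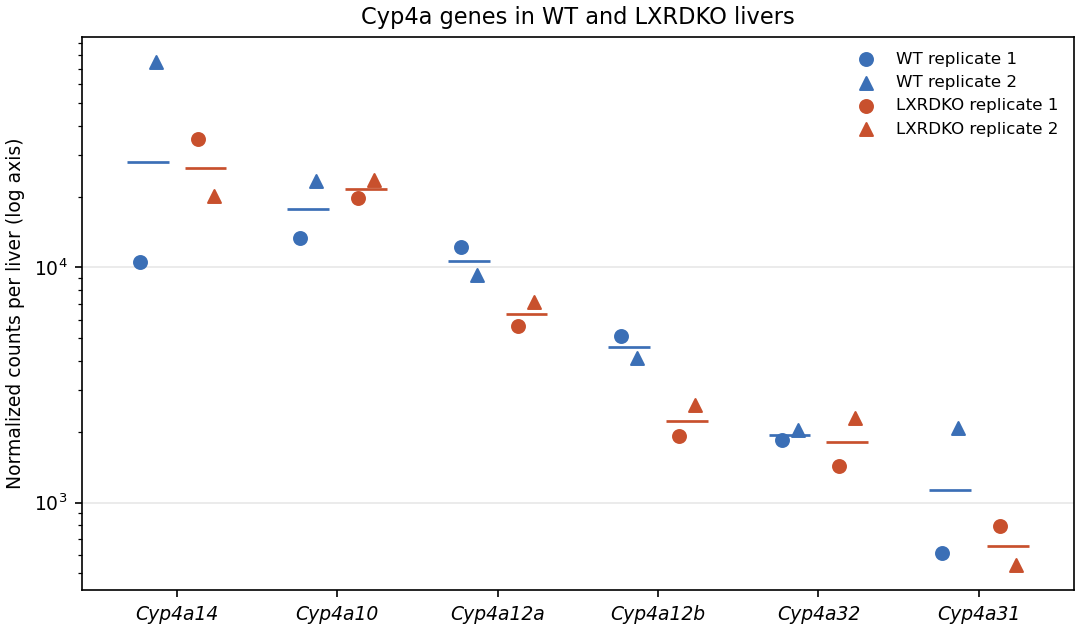
Normalized counts of the 6 Cyp4a genes (log axis) in each liver, WT in blue and LXRDKO in orange, circles for replicate 1 and triangles for replicate 2, with a bar at the geometric mean of each genotype. The WT livers span 10563 to 74832 at Cyp4a14, and the LXRDKO livers lie under the WT livers at Cyp4a12a and Cyp4a12b.

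Cyp4a31 and Cyp4a32, the less studied members next to Cyp4a10, had different patterns. Cyp4a31 had 613 and 2079 normalized counts in WT against 794 and 542 in LXRDKO. WT replicate 2 was the high liver, 3.39-fold above WT replicate 1, and the remaining 3 were close. Of all genes tested, 227 (1.46%) differed more between the WT livers. Its log2 fold change was −0.78 (SE 0.56, 95% interval −2.17 to 0.61, adjusted P = 0.629, limma). Without WT replicate 1 it was −1.66, and without WT replicate 2 it was 0.10.

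Cyp4a32 had 1841 and 2026 normalized counts in WT against 1437 and 2285 in LXRDKO. The WT livers lay between the LXRDKO livers, and the log2 fold change was −0.09 (SE 0.22, 95% interval −0.64 to 0.46, adjusted P = 0.912, limma). It was 0.24 without LXRDKO replicate 1. The sum of Cyp4a10, Cyp4a31 and Cyp4a32 was 15761 and 27527 in WT and 21998 and 26427 in LXRDKO. Its log2 fold change was 0.21 (SE 0.27, adjusted P = 0.807, limma), so the trio as a whole carried the direction of Cyp4a10, its most abundant gene. The ratio of Cyp4a31 to Cyp4a10, which reads shared by both could affect, was 0.0461 and 0.0888 in WT and 0.0402 and 0.0230 in LXRDKO.

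Across the family, 0 of 6 members passed the adjusted threshold in limma, where 50 of 15578 genes (0.321%) did, 21 higher and 29 lower in LXRDKO. At an unadjusted P under 0.05 there were 2 members, against 13.3% of all genes. DESeq2 called 2 of 6, both lower, against 3.59% of its genes in either direction and 2.03% lower in LXRDKO, and edgeR called 0. Both times the 2 members were Cyp4a12a and Cyp4a12b. These are near-identical genes whose reads may be shared, so they are not 2 independent cases. With near-identical genes summed, the pair had an unadjusted P of 0.0036 (limma), and no sum passed the adjusted threshold. The median log2 fold change of the 6 was −0.42, beside −0.0046 for all genes tested. Leaving out WT replicate 2 moved it to 0.04, and leaving out WT replicate 1 moved it to −0.72.

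**Figure D2:**
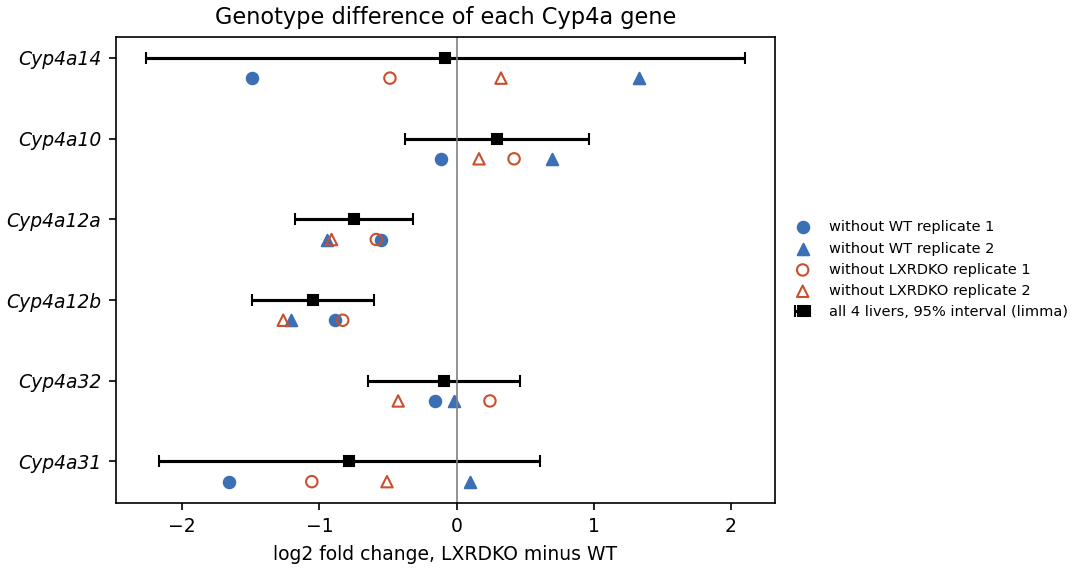
Log2 fold change of each Cyp4a gene, LXRDKO minus WT, with its 95% interval from limma (black), and the same value with 1 liver left out (colored markers). The values of Cyp4a12a (−0.95 to −0.55) and Cyp4a12b (−1.26 to −0.83) stay below 0 whichever liver is left out, whereas those of Cyp4a14 run from −1.49 to 1.33.

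Levels of different genes are given per length of exon, without correction for shared sequence, which is 48.9% of the 50-base runs in Cyp4a12a and 0.235% in Cyp4a14. Per kb, Cyp4a14 had 16416 ± 17472 normalized counts in WT against 10621 ± 4106 in LXRDKO (mean ± SD, n = 2 livers each). Cyp4a10 had 8708 ± 3391 and 10282 ± 1285 per kb. By group means these were the most abundant members, and their spreads overlapped in both genotypes. In WT replicate 1 the order was another, with Cyp4a14 at 4061 and Cyp4a12a at 5042 per kb, and the WT mean of Cyp4a14 was carried by WT replicate 2, at 28770.

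Cyp4a12a followed with 4440 ± 852 per kb in WT and 2634 ± 419 in LXRDKO. Cyp4a12b had 1933 ± 296 and 940 ± 198 per kb. Cyp4a32 had 1259 ± 85.2 and 1212 ± 391. Cyp4a12b and Cyp4a32 overlapped within 1 SD in LXRDKO but not in WT. Cyp4a31 was at the bottom of the order with 536 ± 413 per kb in WT and 266 ± 70.8 in LXRDKO.

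The composition of Cyp4a RNA differed mainly between the WT livers. Cyp4a14 made up 21.4% and 60.5% of the summed level per kb in WT and 49.6% and 31.3% in LXRDKO. Cyp4a10 made up 33.2% and 23.3% in WT and 34.3% and 45.4% in LXRDKO. WT replicate 1 was the liver with less Cyp4a14 than Cyp4a12a, which held 26.5% there against 8.06%, 8.57% and 11.9% in WT replicate 2 and the LXRDKO livers. The shares of Cyp4a12b were 11.3%, 3.62%, 2.93% and 4.39% in the same order.

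**Figure D3:**
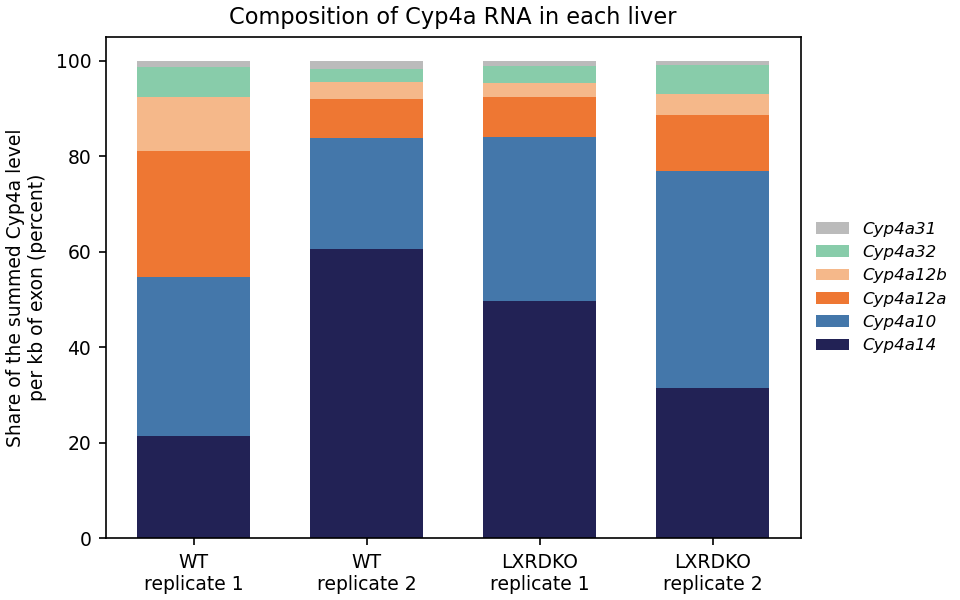
Share of each gene in the summed Cyp4a level per kb of exon, in percent, for each of the 4 livers. Cyp4a14 ranges from 21.4% in WT replicate 1 to 60.5% in WT replicate 2, and the LXRDKO livers lie between at 49.6% and 31.3%.

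Together the 6 genes took 0.0686% and 0.187% of the gene reads of the WT livers against 0.107% and 0.0931% in the LXRDKO livers. Their summed normalized counts were 43666 and 115780 in WT and 64754 and 56185 in LXRDKO. The LXRDKO livers lay between the WT livers, and the log2 difference of the sum was −0.24 (exact permutation P = 1, smallest possible P = 0.333). Without WT replicate 2 it was 0.47 and without WT replicate 1 it was −0.94. The ratio of Cyp4a14 to Cyp4a12a, which does not depend on library scaling, was 0.865 and 8.05 in WT and 6.21 and 2.83 in LXRDKO. The log2 difference of that ratio was 0.67 (exact permutation P = 1). Leaving out WT replicate 1 turned it to −0.94, and leaving out WT replicate 2 gave 2.28.

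Genes next to the cluster gave a local comparison. Within 250 kb on either side and between the members, GENCODE M21 lists 24 other genes, of which 14 had normalized counts and 8 could be tested. None of the 8 passed the threshold in limma or DESeq2. In limma 1 had an unadjusted P under 0.05, the blood stem cell factor gene Tal1, against 13.3% of all genes. Log2 fold changes ran from −0.66 for Tal1 to 0.10 for the kinase gene Mknk1, with a median of −0.16. Cyp4b1, the P450 gene directly after Cyp4a32, had 524 and 536 normalized counts in WT against 717 and 422 in LXRDKO, a log2 fold change of 0.05. The other tested neighbours were Gm12847 (−0.65), Pdzk1ip1 (−0.26), Mob3c (−0.25), Efcab14 (−0.07) and Atpaf1 (0.09). Cyp4a12b, at −1.05, and Cyp4a12a, at −0.75, were below each of these values, a difference between genes that was not tested. The coding gene Cyp4a29, just before Cyp4a12a, had 0 reads in both WT livers and in LXRDKO replicate 2 and 3 reads in LXRDKO replicate 1, which is at the limit of 3 reads that a count of 0 allows.

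**Figure D4:**
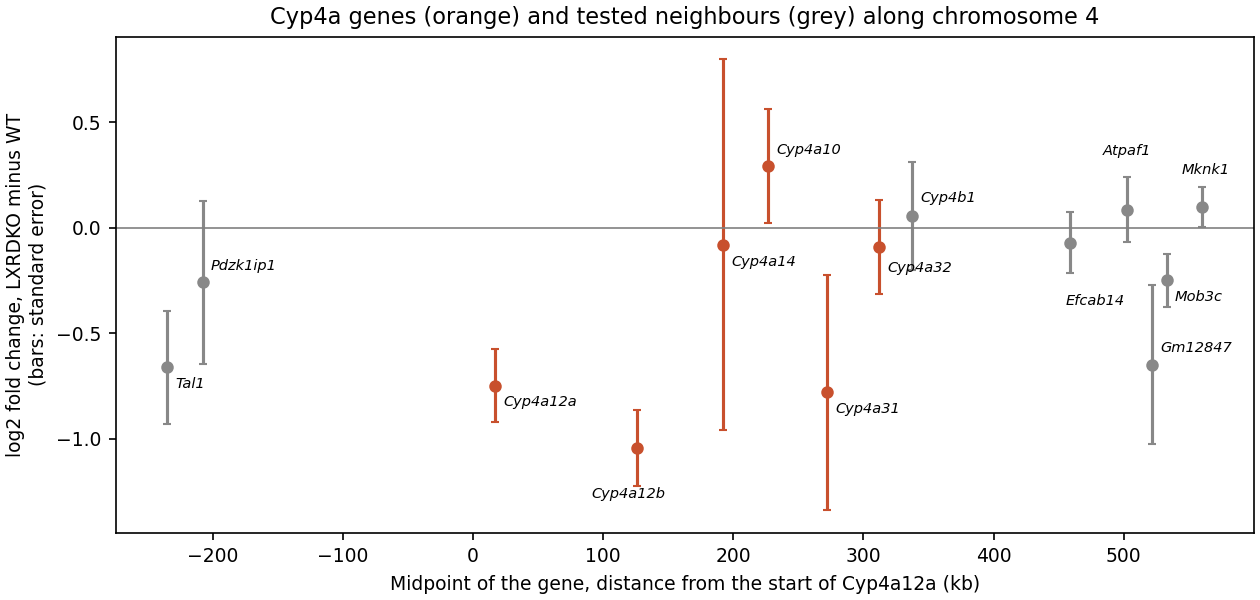
Log2 fold change, LXRDKO minus WT, with its standard error (limma), of the 6 Cyp4a genes (orange) and the 8 tested neighbours (grey) against the distance of each gene's midpoint from the start of Cyp4a12a, in kb. Cyp4a12a and Cyp4a12b, at −0.75 and −1.05, sit beside each other at the left end of the cluster, and Cyp4a14 has the widest error.

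Other CYP4 genes, which hydroxylate leukotrienes, long-chain fatty acids and retinoids among other substrates, were listed for comparison. Of 14 listed, 9 were tested, and 0 passed the threshold in limma or DESeq2. In limma 2 had an unadjusted P under 0.05, against 13.3% of all genes. Their median log2 fold change was 0.11, or 0.05 with WT replicate 1 left out and 0.22 with no filter on low values. Cyp4f39 had 20.5 and 25.5 normalized counts in WT against 2.85 and 6.43 in LXRDKO, a log2 fold change of −2.16 (adjusted P = 0.203, limma). Cyp4f18, a leukotriene B4 hydroxylase of myeloid cells, had 25.1 and 43.3 in WT and 94.0 and 82.5 in LXRDKO, a log2 fold change of 1.39 (adjusted P = 0.214, limma). Both stayed under 100 normalized counts in every liver. Cyp4v3 (0.38) and Cyp4f16 (0.27) overlapped between genotypes.

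The enzymes that work beside CYP4A in ω-oxidation, and the peroxisomal enzymes that shorten its products, were lower in most cases without passing the limma test. Of 30 tested, 26 had a log2 fold change below 0, with a median of −0.30 beside −0.0046 for all genes. LXRDKO was lower without overlap in 17, against 23.0% of all genes tested. It was higher without overlap in 3, against 21.7% of all genes tested. In limma 0 passed the adjusted threshold and 9 had an unadjusted P under 0.05, against 13.3% of all genes. DESeq2 called 6 lower and none higher, where it called 2.03% of its genes lower. Those reported here were the fatty aldehyde dehydrogenase gene Aldh3a2 (−0.60), Cyb5r3 (−0.54) and Cyb5b (−0.61), which encode a cytochrome b5 reductase and a cytochrome b5, the thiolase gene Acaa1b (−0.75) and the peroxisomal transporter gene Abcd3 (−0.64). Por, which encodes the reductase that supplies CYP4A with electrons, was on the other side, with 54673 and 73893 normalized counts in WT against 87824 and 102130 in LXRDKO, a log2 fold change of 0.58 (adjusted P = 0.304 in limma, 0.0594 in DESeq2).

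Abcd2 and Acot3 varied as Cyp4a14 did within WT. Abcd2, another peroxisomal transporter gene, had 1151 and 4943 normalized counts in WT against 1097 and 811 in LXRDKO, a log2 fold change of −1.34 (adjusted P = 0.449, limma) that was −0.29 with WT replicate 2 left out. With WT replicate 1 left out it was −2.39. Acot3, a peroxisomal thioesterase gene, had 1226 and 5475 in WT and 1048 and 2104 in LXRDKO, a log2 fold change of −0.80 (adjusted P = 0.701, limma) that turned to 0.28 with WT replicate 2 left out. In both genes WT replicate 2 was the high liver, as for Cyp4a14 and Cyp4a31.

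Ppara itself, the receptor gene, had 15122 and 12695 normalized counts in WT against 8264 and 10337 in LXRDKO. The genotypes did not overlap. Its log2 fold change was −0.58 (SE 0.15, adjusted P = 0.214 in limma, 0.0282 in DESeq2). Of the 9 receptors and cofactors tested with it, 0 passed in limma and 5 had an unadjusted P under 0.05, against 13.3% of all genes. DESeq2 called Ppara alone, and the median was −0.29, or −0.18 with LXRDKO replicate 1 left out. Rxrg (−0.53) and Pparg (−0.34) were on the low side and the coactivator gene Ppargc1a (0.39) on the high side.

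PPARα target genes, the class to which Cyp4a10 and Cyp4a14 belong, had a median log2 fold change of −0.36 over 26 tested genes, and 24 of them were below 0. None passed in limma, and 10 had an unadjusted P under 0.05, against 13.3% of all genes. DESeq2 called 4 lower, where it called 2.03% of its genes lower. These were the fatty acid transporter gene Cd36 (−1.18), the fatty acid-binding protein gene Fabp1 (−1.16), the lipase gene Mgll (−0.56) and the pantetheinase gene Vnn1 (−0.87). Plin2, which coats lipid droplets, had 29014 and 48664 normalized counts in WT against 10084 and 20007 in LXRDKO, a log2 fold change of −1.40 (adjusted P = 0.232, limma). Fold changes were −2.13 for Cpt1b, with at most 50.9 normalized counts in any liver, and −1.53 for G0s2. The median moved with every liver. It was −0.69 with WT replicate 1 left out and −0.11 with WT replicate 2 left out. It was −0.09 with LXRDKO replicate 1 left out and −0.58 with LXRDKO replicate 2 left out. Cyp4a10, at 0.29, was on the other side of 0 from 24 of the 26 genes, although the intervals of Cyp4a10 and Cyp4a14 both included 0.

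Male-biased hepatic genes, the class of Cyp4a12a, had a median log2 fold change of 0.32 over 16 tested genes. It was −0.39 with WT replicate 2 left out and 0.72 with WT replicate 1 left out. With all livers none passed in limma, and 2 had an unadjusted P under 0.05, against 13.3% of all genes. DESeq2 called 1, Ugt2b1, lower (−0.70), where it called 2.03% of its genes lower. Moxd1 had 643 and 0.85 normalized counts in WT against 56.0 and 608 in LXRDKO, with WT replicate 2 at the level of 1 read. Its log2 fold change was 2.43, and −1.79 with that liver left out. Cyp7b1, the oxysterol hydroxylase gene, had 23124 and 5128 in WT and 30757 and 29891 in LXRDKO, a log2 fold change of 1.48 that was 0.39 with WT replicate 2 left out. Bcl6, which represses female-biased genes in male liver, had 1581 and 627 in WT and 554 and 437 in LXRDKO. Its log2 fold change was −1.01, and −1.68 with WT replicate 2 left out. Of the 16 genes, 11 had a log2 fold change above 0 and 5 below, on which side Cyp4a12a and Cyp4a12b also were.

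Female-biased genes had a median of 0.19 over 12 tested genes, with 0 called in limma or DESeq2. In limma 4 had an unadjusted P under 0.05, against 13.3% of all genes. The sign of that median was not stable. It was −0.95 with WT replicate 1 left out, 0.96 with WT replicate 2 left out and −0.34 with LXRDKO replicate 1 left out. It was −0.59 when genes averaging under 50 normalized counts were dropped. Cyp2a4 had 53.6 and 3470 normalized counts in WT against 34.2 and 83.6 in LXRDKO, so its log2 fold change of −3.00 rested on WT replicate 2 and was −0.0015 with that liver left out. Cyp2c40 (163 and 163 in WT, 85.4 and 8.58 in LXRDKO) and Cyp2b9 (43.3 and 77.2 in WT, 588 and 67.5 in LXRDKO) differed between the LXRDKO livers. Cux2, the transcription factor of female liver, had 41.1 and 226 in WT and 252 and 39.7 in LXRDKO, high in 1 liver of each genotype. Its log2 fold change was 0.06, and 1.27 with WT replicate 2 left out. The Y-linked genes Ddx3y, Kdm5d, Uty and Eif2s3y were tested and none was called in limma or DESeq2, with none at an unadjusted P under 0.05 in limma. The part of any of these differences in the Cyp4a values was not tested.

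**Figure D5:**
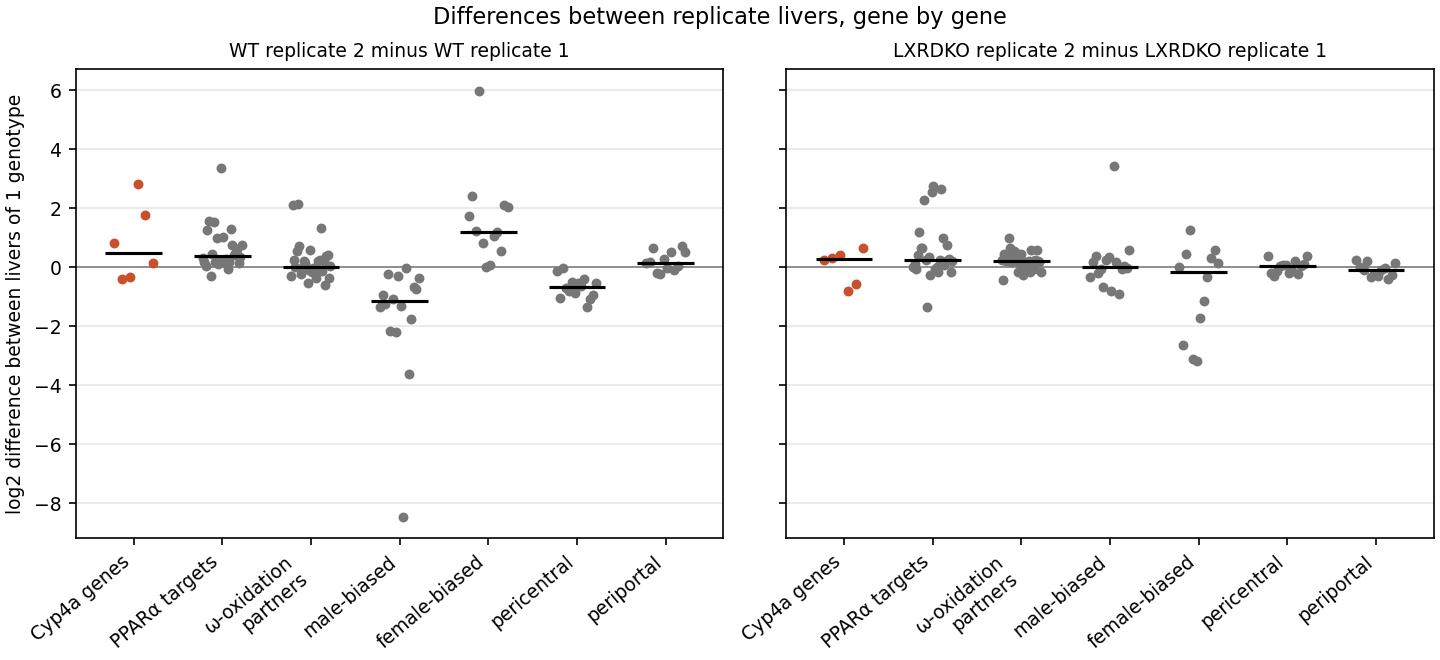
Log2 difference between the 2 livers of 1 genotype, gene by gene (points) with the median of each gene list (bar), for WT (left) and LXRDKO (right). In WT the male-biased and pericentral lists lie below 0, with medians of −1.15 and −0.66, the female-biased and PPARα target lists lie above 0, and Cyp4a14 and Cyp4a31 are the high points among the Cyp4a genes (orange).

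Cell type and zone markers were read beside the Cyp4a values, since CYP4A enzymes are made by hepatocytes. The summed level of 9 hepatocyte markers was 7663270 to 8653130 normalized counts in WT against 7385620 to 8067920 in LXRDKO, and none was at 0. Most of that sum was Alb, at 4940810 and 5959090 in WT against 5214020 and 4644570 in LXRDKO. The median log2 fold change of the 9 was −0.05. DESeq2 called 1 of the 9, Hnf4a, higher and limma called none. Genes of pericentral hepatocytes had a median log2 fold change of 0.40 over 14 tested genes, 0.01 without WT replicate 2 and 0.70 without WT replicate 1. In limma 0 were called over all livers and 3 had an unadjusted P under 0.05, against 13.3% of all genes. Periportal genes had a median of 0.10 over 12 genes, or 0.25 with WT replicate 2 left out. In limma 0 were called and 1 had an unadjusted P under 0.05. DESeq2 called 1 pericentral gene, Cyp2c38, lower and 1 periportal gene, Sds, higher. It called 3.59% of its genes in either direction.

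Some markers of nonparenchymal cells fell in LXRDKO. The sum of 10 Kupffer cell markers was 14531 to 15858 normalized counts in WT against 5330 to 9072 in LXRDKO, and 4 of the 10 (Cd5l, Cd163, Clec4f and Marco) fell in limma, with Timd4 at 0 in LXRDKO replicate 2. LXRDKO was lower without overlap at 7 of the 10, against 23.0% of all genes tested. DESeq2 called 6 of the 10 lower, against 2.03% of its genes, and limma called 29 of all 15578 genes lower. The macrophage genes C1qa (−0.19), C1qb (0.06) and Csf1r (0.05) overlapped between genotypes. The sum of 8 sinusoidal endothelial markers was 14363 to 15775 in WT and 9730 to 12909 in LXRDKO, with none at 0. Of the 8, 7 had a log2 fold change below 0, and LXRDKO was lower without overlap at 5, against 23.0% of all genes tested. In limma 1, Kdr, fell and 4 had an unadjusted P under 0.05, against 13.3% of all genes. Stab1 (−0.12), Stab2 (−0.37) and Lyve1 (0.23) overlapped. Markers of kidney tubule, the other main site of CYP4A, summed to 87.4 to 154 normalized counts in WT against 97.8 to 125 in LXRDKO over 6 genes, with 0 of 3 tested genes called and none at an unadjusted P under 0.05. The defining kidney genes Umod and Slc22a8 were at 0 in 3 of the 4 livers, and Slc34a1 did not exceed 2.14. The part of the Kupffer cell and endothelial differences in the Cyp4a values was not tested.

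Likeness of profile was measured as the root mean square difference of centred log2 values over the 4 livers. The genes outside the family nearest to Cyp4a10 were Rpl10a (0.0335), Cystm1 (0.0393) and Myo15b (0.0451). Members were ranked against genes outside the family. From Cyp4a10, Cyp4a32 ranked 4832 at 0.34, Cyp4a31 14477 at 0.693 and Cyp4a14 14934 at 0.825. Nearest to Cyp4a12a were Slc6a4 (0.0459), Gm12265 (0.047) and Rnf125 (0.0655), and Cyp4a12b ranked 89 at 0.156. Nearest to Cyp4a14 were Twist1 (0.26), Ebf1 (0.274) and Olfr920 (0.314), each with fewer than 40 normalized counts in any liver. From Cyp4a14, Cyp4a31 ranked 47 at 0.522 and Cyp4a10 840 at 0.825. A match over 4 livers does not show shared control.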

How the data were processed

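Polyadenylated RNA of 2 WT and 2 LXRDKO livers, 1 library per mouse, was prepared with a stranded kit and sequenced as single-end 50-bp reads. The authors aligned reads to mm10 with STAR 2.6.0c (version per the processing notes). The deposited values are a signal, counts of reads per gene divided by a DESeq2 size factor for each library, for 25010 genes. The counting tool, its strand setting and the annotation release are not given in the sources used here. All 4 columns were mapped to mice.

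Every value above 0 was a whole number of reads (relative tolerance 0.001), from 55772659 to 72842744 reads per liver. Log2(normalized count + 1) was tested between genotypes with limma 3.58.1 in R 4.3.3, with empirical Bayes moderation and a trend on the 15578 genes whose mean reached 10 normalized counts. P values were adjusted over these genes by the Benjamini-Hochberg method, with a threshold of 0.05, two-sided. Sums and ratios were compared by two-sided exact permutation tests. Sums of near-identical genes were also fitted with limma.

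As alternatives, the recovered reads were tested with DESeq2 1.42.0 and with edgeR 4.0.16, and other pseudocounts (0.5 and 8), filters, scalings, moderation, thresholds, a replicate block, summed paralogs and leaving out single livers were tried. The code was tested on simulated data.

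Positions and sequences are those of GENCODE M21 (GRCm38), which held 24987 of the gene identifiers. Expression per kb used the summed length of each gene's exons.

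The members and the gene lists were chosen with earlier results of these data known. Genes named besides the members are the deleted genes, Ppara, list genes with an adjusted limma P below 0.05 or the 4 largest fold changes of a list (3 for sex-biased lists, with Cux2), sex-linked genes, neighbours within 250 kb and the 3 genes of most similar profile. Genes of lists that DESeq2 called, marker genes, Por and Cyp4a29 were named after their values were seen. The values of 1 list gene are not reported here. ATAC-Seq was not analysed here.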

Additional observations from a re-analysis of the deposited data

How the results depend on the processing

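Of 96 values of the 6 members' log2 fold changes under 16 alternatives, 85 kept their direction and their side of the threshold, 4 passed the threshold and 7 reversed. Filters, moderation, the trend and the replicate block leave a log2 fold change as it is, so they could not reverse it. All 7 reversals came from leaving out a liver or from summing near-identical genes. The count of 85 is therefore no measure of stability between livers. DESeq2 passed Cyp4a12a (−0.75) and Cyp4a12b (−1.04), and so called 2 members instead of 0. The range over single livers left out was −0.12 to 0.70 for Cyp4a10, −1.49 to 1.33 for Cyp4a14, −0.95 to −0.55 for Cyp4a12a, −1.26 to −0.83 for Cyp4a12b, −1.66 to 0.10 for Cyp4a31 and −0.43 to 0.24 for Cyp4a32. Reversals were Cyp4a10 without WT replicate 1 (−0.12), Cyp4a14 without LXRDKO replicate 2 (0.32) or WT replicate 2 (1.33), Cyp4a31 without WT replicate 2 (0.10) and Cyp4a32 without LXRDKO replicate 1 (0.24). Replacing Cyp4a31 and Cyp4a32 by the sum with Cyp4a10 also reversed them (0.21). Cyp4a12b passed without WT replicate 2 (−1.20) and Cyp4a31 without WT replicate 1 (−1.66), so 0 to 1 members were called with a liver left out, where the lone liver of a group is assumed to vary like the others. The summed level ranged from −0.94 to 0.47 and the ratio of Cyp4a14 to Cyp4a12a from −0.94 to 2.28. The causes were not tested.

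The count of genes called, 50, was 567 with DESeq2, 25 with a mean of at least 50, 138 at an adjusted P of 0.10 and 1 without the trend (1873 at an unadjusted P under 0.05), and ranged from 2 (without LXRDKO replicate 1) to 262 (without WT replicate 1) with a liver left out. With the replicate number as a block, 90 genes and 0 members were called. The labels do not say that a replicate number marks a shared litter or day. The deviations of same-numbered livers correlated at 0.0031 over 15578 genes. With 2 livers per genotype, that value compares 1 WT difference with 1 LXRDKO difference. It cannot decide whether the numbers pair the mice. The smallest read count of a member in any liver was 506, far above the limit of 3 reads. The split of reads within the pair and within the trio stays uncertain at any depth.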
